A study of Mus musculus with 12 samples.

Results

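Gene expression in wild-type (WT) mouse liver was compared between 3 animals fed the diet that the labels call HFCF and 3 animals fed chow. The genes described are all those of the deposited table with enough counts to test, 14736 of 15846, measured in 6 livers out of the study's 12. All mice were C57BL/6 and 5 months old, and each library came from the liver of 1 mouse, so that p-values measure the spread between these mice. The other 6 livers carried a hepatocyte knockout of Shp (Shp Hep-/-, written KO below; gene symbol Nr0b2), 3 on chow and 3 on HFCF, and entered the fit to share its estimate of spread. What HFCF contains, how long it was fed, the sex of the mice, the hour at which livers were taken and the Cre line behind the knockout are facts that no source used here states.

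The liver takes up fat, sugar and cholesterol from the diet, stores surplus fatty acids as triglyceride in lipid droplets, and turns cholesterol into bile acids. When sterols accumulate in hepatocytes, the transcription factor SREBP2 is held back in the endoplasmic reticulum (ER) and cholesterol synthesis falls, while oxysterols activate the nuclear receptor LXR, which drives sterol export and SREBP1c, a regulator of fatty acid synthesis. Under lasting lipid load, macrophages take up lipid and stellate cells lay down collagen.

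Levels are given as CPM, read counts relative to library totals scaled with TMM factors, for livers 1, 2 and 3 of a group in that order. Changes are log2 values of HFCF over chow; the ± that follows one is the standard error given by edgeR, whose quasi-likelihood model was fitted to all 12 libraries. Genes were called, and are said to have risen or fallen, at a Benjamini-Hochberg adjusted p under 0.05 over all tested genes. Total counts in the 6 WT libraries ranged from 13967116 to 17371095. Nr0b2 itself, which the labels leave intact in these mice, stood at 49.3, 22.4 and 31 CPM on chow and 47.6, 49.6 and 53.4 CPM on HFCF. The groups overlapped and the diet effect was not called (log2 change 0.55 ± 0.20, edgeR adjusted p = 0.0875), though it was called without chow replicate 1 (0.92, edgeR adjusted p = 0.00274), with the replicate block (0.61, edgeR adjusted p = 0.0369) and by limma voom (0.62, adjusted p = 0.0436). All KO livers lay below all WT livers for this gene. The 28 tested hepatocyte markers summed to between 114000 and 117000 CPM on chow and between 95300 and 102000 CPM on HFCF, with 5 members called lower and none higher (1 higher at an unadjusted edgeR p under 0.05), and with 1 called lower without chow replicate 2 and 3 without chow replicate 1 or HFCF replicate 3. One library stood apart: on the first principal component of the WT libraries (47.8% of the variance) the chow livers lay at -25, -25.6 and -26.8 and the HFCF livers at 40.1, 23.1 and 14.3. HFCF replicate 1 was the highest of the 3 HFCF livers for 694 of the genes that rose and the lowest for 450 of those that fell. Counts that moved by more than 1.5 times without it, or without another WT library, are given that way beside the main count.

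The diet changed 2013 genes (13.7% of those tested) in WT liver: 1144 rose (7.76%) and 869 fell (5.9%). Each count of gene list members given below is to be set against these shares. At least 2-fold changes were seen for 288 rises (180 without HFCF replicate 1) and 119 falls. The median log2 fold change over all tested genes was 0, and the livers of the groups did not overlap for 4582 genes (31.1%). Calls were more frequent among abundant genes: of the 3684 genes lowest in mean FPKM 5.18% rose and 2.04% fell, and of the 3684 highest 11.1% rose and 10.6% fell. Leaving out HFCF replicate 1 left 757 rises and 546 falls. Leaving out chow replicate 3 left 649 and 451, and the falls numbered 449 without chow replicate 1 and 536 without chow replicate 2.

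**Figure D1:**
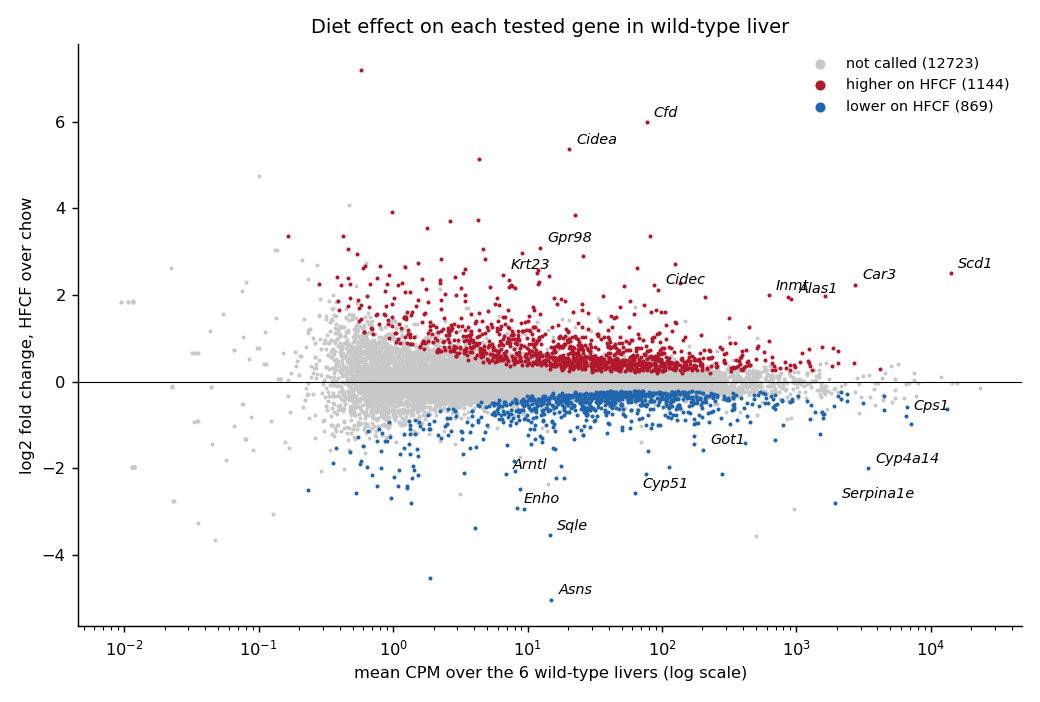
Log2 fold change (HFCF over chow, y axis) against mean CPM over the 6 WT livers (x axis, log scale) for 14736 tested genes. Each point is a gene, red where it rose (1144), blue where it fell (869) and grey where it was not called. Scd1 and Car3 lie far to the right among the rises, and Cyp4a14 and Serpina1e among the falls.

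On the deposited FPKM scale, which is per length of gene, the largest change among called genes was in Scd1, the desaturase that makes monounsaturated fatty acids, at 859 ± 212 FPKM on chow and 4980 ± 1820 FPKM on HFCF (mean ± SD, n = 3 livers). The largest fall on that scale was in Serpina3k, a plasma protease inhibitor, at 9650 ± 1030 FPKM on chow and 6320 ± 1690 FPKM on HFCF (mean ± SD, n = 3 livers). Its call (log2 change -0.64 ± 0.17, edgeR adjusted p = 0.0208) was lost without chow replicate 2 (edgeR adjusted p = 0.0646) or chow replicate 3 (edgeR adjusted p = 0.0908) and in the fit of the 6 WT libraries alone (edgeR adjusted p = 0.0606). Car3, a carbonic anhydrase of liver, muscle and fat (ENSMUSG00000027559, mm10 chromosome 3, 14863537 to 14872351, plus strand), stood at 980, 752 and 1130 CPM on chow and 4390, 5000 and 4110 CPM on HFCF. Its HFCF livers all lay far above the chow livers, at 4.71-fold the chow mean (log2 change 2.24 ± 0.32, edgeR adjusted p = 0.000673). Cyp4a14, a fatty acid omega-hydroxylase and a classic target of the nuclear receptor PPARα (ENSMUSG00000028715, mm10 chromosome 4, 115486199 to 115496142, minus strand), stood at 4520, 6330 and 5480 CPM on chow and 1470, 996 and 1620 CPM on HFCF. No HFCF liver reached the level of any chow liver (log2 change -2.00 ± 0.26, edgeR adjusted p = 0.000315). Serpina1e, a member of the α1-antitrypsin family of secreted protease inhibitors (ENSMUSG00000072849, mm10 chromosome 12, 103946930 to 103958975, minus strand), stood at 2850, 3990 and 3250 CPM on chow and 133, 899 and 417 CPM on HFCF. It was low in every HFCF liver and lowest in replicate 1 (log2 change -2.80 ± 0.45, edgeR adjusted p = 0.00147). Since Serpina1 paralogs are nearly identical, how reads were divided among them is uncertain.

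Gpr98, an adhesion G protein-coupled receptor, stood at 2.15, 2.69 and 2.9 CPM on chow and 15.5, 34.6 and 16.4 CPM on HFCF (log2 change 3.09 ± 0.34, edgeR adjusted p = 8.65e-05). Its highest HFCF liver was replicate 2, and all HFCF livers lay far above the chow livers. Cyp2a22, a cytochrome P450, stood at 1.93, 2.76 and 1.52 CPM on chow and 28.5, 8.76 and 10.8 CPM on HFCF (log2 change 2.96 ± 0.46, edgeR adjusted p = 0.00114). All HFCF livers were above all chow livers, with replicate 1 well above the other two. Among rare transcripts that fell, Cyp2c40 stood at 1.29, 2.69 and 1.04 CPM on chow and 0.227, 0.487 and 0.0644 CPM on HFCF (log2 change -2.68 ± 0.50, edgeR adjusted p = 0.00379). Slc10a6, a sodium-dependent carrier of sulfated steroids, was at 1.57, 1.63 and 0.622 CPM on chow and 0.171, 0.278 and 0.258 CPM on HFCF (log2 change -2.41 ± 0.46, edgeR adjusted p = 0.0039). For both, every chow liver was above every HFCF liver.

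**Figure D2:**
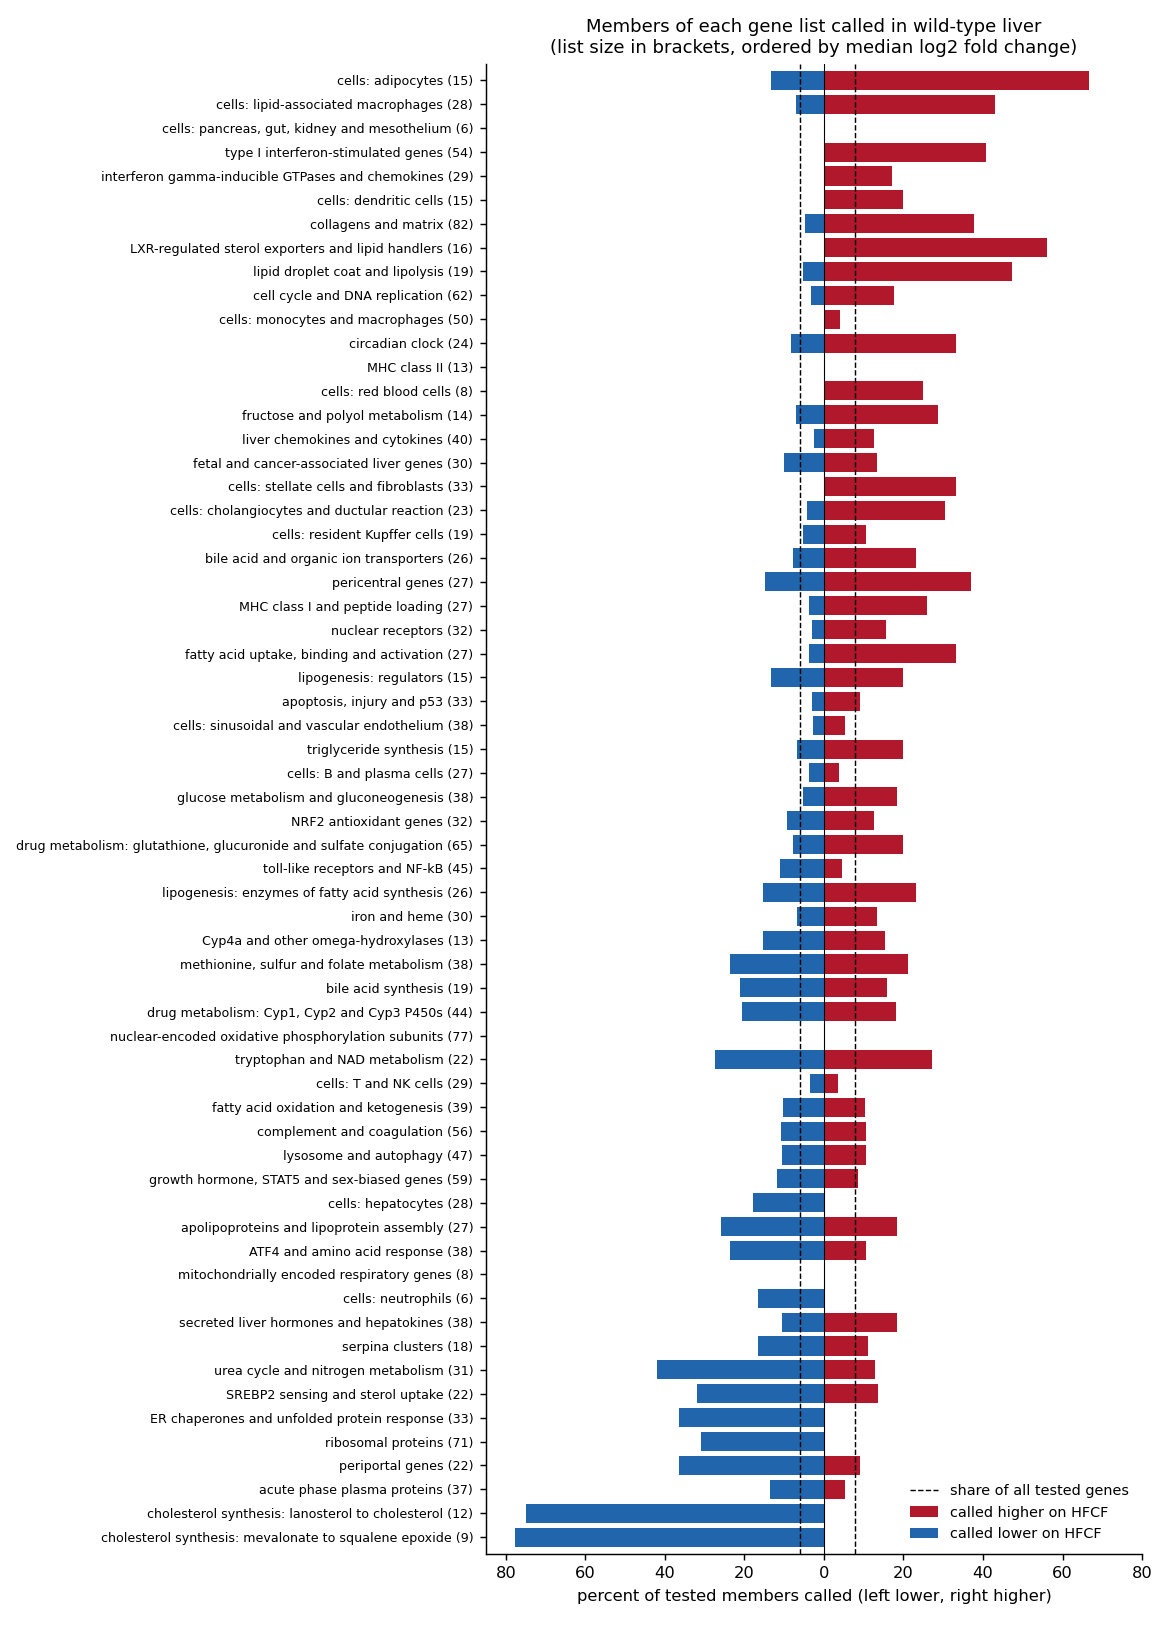
Percent of the tested members of each of 62 gene lists called higher (red, to the right) or lower (blue, to the left) on HFCF in WT liver, ordered by the median log2 fold change of the list, with the number of tested members in brackets. Dashed lines mark the shares over all tested genes (7.76% and 5.9%); cholesterol synthesis lists lie at the bottom and adipocyte markers, which include droplet genes, at the top.

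Transcripts for making sterols fell and those for exporting them rose. Of 9 tested genes from mevalonate to squalene epoxide 7 fell and none rose (1 at an unadjusted edgeR p under 0.05; median log2 fold change -1.0), and of 12 from lanosterol to cholesterol 9 fell and none rose (0 at an unadjusted p, median -0.94). Between 6 and 7 of the former and 8 and 9 of the latter fell when any 1 WT library was left out, and 1 of the 9 rose without HFCF replicate 3. Hmgcs1 is absent from the deposited table and is not among the 9. Idi1, which makes the isoprenoid building block dimethylallyl diphosphate, stood at 1.43, 1.98 and 2.07 CPM on chow and 0.341, 0.348 and 0.322 CPM on HFCF (log2 change -2.41 ± 0.32, edgeR adjusted p = 0.000398). Fdps, the farnesyl diphosphate synthase, stood at 20.9, 24.6 and 23.7 CPM on chow and 10.1, 7.3 and 6.64 CPM on HFCF (log2 change -1.52 ± 0.22, edgeR adjusted p = 0.000646). In each of these genes the 3 HFCF livers lay together below all 3 chow livers. Tm7sf2, a sterol reductase late in the pathway, fell as well, from 110, 97.8 and 128 CPM on chow to 51, 53.5 and 55.1 CPM on HFCF (log2 change -1.07 ± 0.13, edgeR adjusted p = 0.000238).

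Among 22 tested genes of sterol sensing and uptake 7 fell and 3 rose (median -0.22). Srebf2, the gene of SREBP2, stood at 19.7, 21.9 and 17.4 CPM on chow and 11, 10.1 and 10.6 CPM on HFCF (log2 change -0.90 ± 0.10, edgeR adjusted p = 0.000147). Its HFCF livers were nearly equal and below all chow livers. Rdh11, a retinol dehydrogenase that follows SREBP activity, fell from 34.6, 32.5 and 41.6 CPM on chow to 15.7, 14.2 and 16 CPM on HFCF (log2 change -1.24 ± 0.10, edgeR adjusted p = 8.46e-06). Osbpl3, an oxysterol-binding protein, rose from 12.1, 18.7 and 13.3 CPM on chow to 71.7, 49.1 and 52.1 CPM on HFCF (log2 change 1.97 ± 0.17, edgeR adjusted p = 1.46e-05). The 3 rises were 1 without chow replicate 2, chow replicate 3 or HFCF replicate 2.

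On the disposal side, 9 of 16 tested LXR-regulated exporters and lipid handlers rose and none fell (4 at an unadjusted edgeR p under 0.05; median 0.50), and 6 rose without HFCF replicate 1 or chow replicate 1. Abca1, which loads cholesterol onto apolipoprotein A-I, stood at 349, 287 and 304 CPM on chow and 492, 470 and 475 CPM on HFCF (log2 change 0.61 ± 0.09, edgeR adjusted p = 0.000679). Lpcat3, which puts polyunsaturated chains into membrane phospholipids, stood at 72.4, 76.8 and 80.5 CPM on chow and 130, 105 and 98.5 CPM on HFCF (log2 change 0.54 ± 0.11, edgeR adjusted p = 0.00492). In both, every HFCF liver was above every chow liver. Falls among these 16 genes numbered 2 without HFCF replicate 1 and 1 without chow replicate 1 or HFCF replicate 2.

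Bile acid synthesis showed no common direction: 3 of 19 tested genes rose and 4 fell (median 0.01), and the falls were 2 without chow replicate 3 or HFCF replicate 2. Cyp8b1, the 12α-hydroxylase that decides how much cholic acid is made, stood at 912, 1160 and 1070 CPM on chow and 708, 407 and 464 CPM on HFCF, with all HFCF livers below all chow livers (log2 change -1.0 ± 0.18, edgeR adjusted p = 0.00326). Cyp39a1, the oxysterol 7α-hydroxylase, stood at 26.2, 38.8 and 29.2 CPM on chow and 9.67, 12.3 and 15.7 CPM on HFCF (log2 change -1.32 ± 0.25, edgeR adjusted p = 0.00354). Cyp7a1, the rate-limiting enzyme of bile acid synthesis and a target of Shp, stood at 378, 865 and 684 CPM on chow and 546, 284 and 291 CPM on HFCF. Its groups overlapped and it was not called (log2 change -0.78 ± 0.31, edgeR adjusted p = 0.108), but it was called without chow replicate 1 (-1.04, edgeR adjusted p = 0.0414) and without HFCF replicate 1 (-1.16, edgeR adjusted p = 0.028). Of 26 tested bile acid and organic ion transporters 6 rose and 2 fell (median 0.20; 1 fell without chow replicate 1 or HFCF replicate 2). Slco1b2, an uptake carrier for unconjugated bile acids and drugs at the sinusoid, rose from 2070, 2440 and 2310 CPM on chow to 2670, 3250 and 3320 CPM on HFCF (log2 change 0.44 ± 0.10, edgeR adjusted p = 0.0103).

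Genes of fatty acid synthesis moved in both directions. Of 26 tested enzymes 6 rose and 4 fell (median 0.04), and of 15 regulators 3 rose and 2 fell (median 0.13). Acaca, the acetyl-CoA carboxylase that commits carbon to fatty acids, stood at 33.7, 30.7 and 36.7 CPM on chow and 50.7, 45.1 and 42.6 CPM on HFCF (log2 change 0.45 ± 0.09, edgeR adjusted p = 0.00521). Acly, which supplies cytosolic acetyl-CoA from citrate, stood at 145, 149 and 144 CPM on chow and 124, 111 and 104 CPM on HFCF and fell (log2 change -0.37 ± 0.09, edgeR adjusted p = 0.0126). Fasn, the fatty acid synthase, stood at 115, 117 and 108 CPM on chow and 134, 102 and 99.6 CPM on HFCF, with overlapping groups (log2 change -0.02 ± 0.17, edgeR adjusted p = 0.966). Thus the carboxylase rose, the lyase fell and the synthase was not called. Aacs, which activates acetoacetate for lipid synthesis, stood at 17.4, 25 and 12.7 CPM on chow and 114, 151 and 72 CPM on HFCF (log2 change 2.62 ± 0.42, edgeR adjusted p = 0.0013). Elovl2, an elongase of polyunsaturated fatty acids, stood at 547, 694 and 635 CPM on chow and 421, 419 and 421 CPM on HFCF (log2 change -0.57 ± 0.12, edgeR adjusted p = 0.00621). The 3 HFCF values of Elovl2 were nearly equal and below all chow values.

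Storage of fat in droplets moved more uniformly: of 19 tested droplet coat and lipolysis genes 9 rose and 1 fell (median 0.48), and HFCF replicate 1 was the highest liver for 8 of the 9 rises. The rises were 6 without HFCF replicate 1 or chow replicate 1, and the fall was lost without chow replicate 1 or chow replicate 3. Cidec, which fuses droplets into larger ones, stood at 28.7, 40.1 and 36.3 CPM on chow and 220, 144 and 92.8 CPM on HFCF (log2 change 2.12 ± 0.34, edgeR adjusted p = 0.00142). G0s2, an inhibitor of the triglyceride lipase ATGL, stood at 88, 96.3 and 75.8 CPM on chow and 403, 319 and 280 CPM on HFCF (log2 change 1.95 ± 0.27, edgeR adjusted p = 0.000486). Lipe, the hormone-sensitive lipase, stood at 14.5, 12.7 and 12.4 CPM on chow and 26.7, 24.8 and 21 CPM on HFCF (log2 change 0.87 ± 0.12, edgeR adjusted p = 0.000639). For these 3 genes the HFCF livers lay wholly above the chow livers. Hsd17b11, a droplet-bound dehydrogenase, rose from 127, 169 and 152 CPM on chow to 236, 228 and 239 CPM on HFCF (log2 change 0.65 ± 0.11, edgeR adjusted p = 0.00151). Plin2, the usual marker of hepatocyte droplets, stood at 1010, 764 and 1220 CPM on chow and 1280, 996 and 885 CPM on HFCF. Its groups overlapped and the gene was not called (log2 change 0.07 ± 0.24, edgeR adjusted p = 0.876).

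Several droplet genes are also adipocyte markers, and in whole liver a change in the number of cells of a type and a change in RNA per cell cannot be told apart. Of 15 tested adipocyte markers 10 rose and 2 fell (median 0.97), with 8 rises without HFCF replicate 1 and 1 fall without chow replicate 2. Together they summed to between 7060 and 7980 CPM on chow and between 8610 and 10300 CPM on HFCF, most of it from genes that hepatocytes also express, such as Pck1 and Car3. The defining markers Adipoq, Lep, Retn and Plin1 were not analysed here.

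In triglyceride synthesis 3 of 15 tested genes rose and 1 fell (median 0.11). Dgat2, which adds the last fatty acid to diglyceride, stood at 380, 449 and 397 CPM on chow and 582, 628 and 555 CPM on HFCF (log2 change 0.53 ± 0.09, edgeR adjusted p = 0.00222). Mogat1, a monoacylglycerol acyltransferase, stood at 2.29, 1.91 and 1.52 CPM on chow and 15.6, 4.94 and 5.35 CPM on HFCF, highest in HFCF replicate 1 (log2 change 2.19 ± 0.41, edgeR adjusted p = 0.00354). Lpin1, the phosphatidate phosphatase, stood at 243, 370 and 153 CPM on chow and 105, 93.2 and 82 CPM on HFCF and fell (log2 change -1.45 ± 0.27, edgeR adjusted p = 0.00334). The groups were apart for all 3. Of 27 tested genes of fatty acid uptake, binding and activation 9 rose and 1 fell (median 0.13; the fall was lost without chow replicate 1 or HFCF replicate 1). Fabp2, the intestinal-type fatty acid binding protein, stood at 122, 130 and 124 CPM on chow and 270, 264 and 254 CPM on HFCF, among the smallest spreads of any named gene (log2 change 1.07 ± 0.08, edgeR adjusted p = 3.45e-06). Acsm5, a mitochondrial medium-chain acyl-CoA synthetase, rose from 149, 158 and 154 CPM on chow to 252, 263 and 247 CPM on HFCF (log2 change 0.72 ± 0.07, edgeR adjusted p = 3e-05).

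In fatty acid oxidation and ketogenesis 4 of 39 tested genes rose and 4 fell (10.3% each way, against 7.76% and 5.9% of all tested genes; median -0.04). No rise was left without HFCF replicate 1, 1 without chow replicate 3 and 2 without chow replicate 1. No fall was left without chow replicate 2 or chow replicate 3, and 1 without HFCF replicate 2 or HFCF replicate 3. Cpt1a, the carnitine palmitoyltransferase that gates entry of fatty acids into mitochondria, stood at 953, 1050 and 982 CPM on chow and 1120, 950 and 877 CPM on HFCF with overlapping groups (log2 change -0.02 ± 0.11, edgeR adjusted p = 0.949). Of 77 nuclear-encoded subunits of oxidative phosphorylation edgeR called 0 (9 at an unadjusted p under 0.05; 1 by DESeq2 and 0 by limma voom; median 0.01), and 4 rose without HFCF replicate 3. Of 8 mitochondrially encoded respiratory genes edgeR, DESeq2 and limma voom called 0 (0 at an unadjusted p under 0.05; median -0.16). Beside the fall of Cyp4a14, Cyp4a10, another PPARα-driven omega-hydroxylase, stood at 1750, 2400 and 1880 CPM on chow and 1140, 1200 and 1280 CPM on HFCF (log2 change -0.74 ± 0.16, edgeR adjusted p = 0.00947). Cyp4a12b of the same family moved the other way, from 15.9, 20.2 and 18.3 CPM on chow to 35, 32.5 and 25.7 CPM on HFCF (log2 change 0.78 ± 0.13, edgeR adjusted p = 0.00203). Its reads may be shared with its close paralog Cyp4a12a, so its level is uncertain. Of 13 tested omega-hydroxylases 2 rose and 2 fell (median 0.02), and 1 rose without chow replicate 2, chow replicate 3 or HFCF replicate 2.

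Among 27 tested apolipoproteins and assembly factors 5 rose and 7 fell (median -0.14). Apoe is absent from the deposited table and is not among them. Apom, the carrier of sphingosine 1-phosphate on HDL, stood at 203, 230 and 254 CPM on chow and 92.5, 136 and 123 CPM on HFCF (log2 change -0.97 ± 0.12, edgeR adjusted p = 0.000275). Apoc2, the activator of lipoprotein lipase, stood at 238, 259 and 234 CPM on chow and 581, 425 and 339 CPM on HFCF (log2 change 0.88 ± 0.15, edgeR adjusted p = 0.00241). Angptl4, an inhibitor of the same lipase and a PPAR target, stood at 273, 262 and 293 CPM on chow and 149, 209 and 144 CPM on HFCF (log2 change -0.72 ± 0.16, edgeR adjusted p = 0.0103). The activator rose and the inhibitor fell, each with groups apart. Apoc1, a small apolipoprotein and the third largest rise on the FPKM scale, was at 6980 ± 258 FPKM on chow and 8730 ± 558 FPKM on HFCF (mean ± SD, n = 3 livers). Its call (log2 change 0.29 ± 0.08, edgeR adjusted p = 0.0262) was lost without chow replicate 2, chow replicate 3, HFCF replicate 2 or HFCF replicate 3 (edgeR adjusted p between 0.0587 and 0.113) and in the fit of the 6 WT libraries alone (edgeR adjusted p = 0.0673). The rises were 1 without chow replicate 3 and 3 without chow replicate 1, chow replicate 2 or HFCF replicate 3. The falls were 3 without chow replicate 1 and 4 without chow replicate 2.

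In glucose metabolism 7 of 38 tested genes rose and 2 fell (median 0.10), and HFCF replicate 1 was the highest liver for all 7 rises. Slc2a2, the glucose transporter GLUT2, stood at 298, 323 and 278 CPM on chow and 552, 470 and 440 CPM on HFCF (log2 change 0.70 ± 0.11, edgeR adjusted p = 0.00126). Pfkl, the liver phosphofructokinase, stood at 35.6, 35.6 and 38 CPM on chow and 52.8, 48.6 and 47.7 CPM on HFCF (log2 change 0.45 ± 0.08, edgeR adjusted p = 0.00381). Gckr, a regulatory protein of hepatic sugar phosphorylation, stood at 121, 109 and 122 CPM on chow and 164, 151 and 146 CPM on HFCF (log2 change 0.39 ± 0.09, edgeR adjusted p = 0.00934). All 3 had every HFCF liver above every chow liver. Pck1, the gluconeogenic carboxykinase, stood at 5110, 6230 and 5130 CPM on chow and 3570, 3730 and 3190 CPM on HFCF and fell (log2 change -0.65 ± 0.15, edgeR adjusted p = 0.0111), but not without chow replicate 2 (-0.54, edgeR adjusted p = 0.0551). Without chow replicate 3, 3 of the 38 rose. The falls ranged from 0 without chow replicate 2 to 5 without HFCF replicate 1, with 1 without chow replicate 1, HFCF replicate 2 or HFCF replicate 3.

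Of 14 tested genes of fructose and polyol metabolism 4 rose and 1 fell (median 0.32; 2 fell without HFCF replicate 1). Khk, the ketohexokinase that begins fructose breakdown, stood at 196, 187 and 187 CPM on chow and 320, 302 and 221 CPM on HFCF (log2 change 0.56 ± 0.12, edgeR adjusted p = 0.00719). Sord, which turns sorbitol into fructose, rose from 961, 1050 and 1030 CPM on chow to 1420, 1400 and 1430 CPM on HFCF (log2 change 0.48 ± 0.08, edgeR adjusted p = 0.00142). Dak, the triokinase that phosphorylates glyceraldehyde later in the same route, stood at 156, 179 and 138 CPM on chow and 127, 99.4 and 88.8 CPM on HFCF and fell (log2 change -0.59 ± 0.12, edgeR adjusted p = 0.00704). The first kinase thus rose and the last fell.

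Transcripts of nitrogen disposal were lower in many steps. Of 31 tested genes of the urea cycle and nitrogen metabolism 13 fell and 4 rose (median -0.21). Between 11 and 13 fell when any 1 library was left out, 13 of them without HFCF replicate 1. Rises were 2 without HFCF replicate 1 or chow replicate 3. Cps1, the mitochondrial carbamoyl phosphate synthetase that starts the urea cycle (ENSMUSG00000025991, mm10 chromosome 1, 67123025 to 67231259, plus strand), stood at 8950, 8080 and 8000 CPM on chow and 3810, 5200 and 5430 CPM on HFCF. Its HFCF livers were 1.73-fold below the chow mean and none overlapped (log2 change -0.79 ± 0.15, edgeR adjusted p = 0.00412). Ass1, the argininosuccinate synthase, stood at 571, 563 and 495 CPM on chow and 283, 323 and 333 CPM on HFCF (log2 change -0.79 ± 0.10, edgeR adjusted p = 0.000282). Asl, the lyase that follows it, stood at 1070, 1010 and 877 CPM on chow and 372, 421 and 372 CPM on HFCF (log2 change -1.34 ± 0.15, edgeR adjusted p = 0.000126). Arg1, the arginase that releases urea, stood at 2050, 1970 and 1870 CPM on chow and 1210, 1230 and 1070 CPM on HFCF (log2 change -0.75 ± 0.11, edgeR adjusted p = 0.00107). Each of these 4 enzymes was lower in all 3 HFCF livers than in any chow liver. Otc, the ornithine transcarbamylase between Cps1 and Ass1, stood at 492, 485 and 496 CPM on chow and 493, 601 and 587 CPM on HFCF and was not called (log2 change 0.19 ± 0.10, edgeR adjusted p = 0.222). Otc was chosen after its values were seen. Slc25a15, the mitochondrial ornithine carrier, stood at 460, 376 and 376 CPM on chow and 260, 254 and 260 CPM on HFCF (log2 change -0.65 ± 0.10, edgeR adjusted p = 0.000817).

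Enzymes of amino acid breakdown were among the falls of this list. Got1, the cytosolic aspartate aminotransferase, stood at 294, 320 and 293 CPM on chow and 125, 77.4 and 103 CPM on HFCF, a 2.96-fold lower mean (log2 change -1.57 ± 0.21, edgeR adjusted p = 0.000435). Gls2, the liver glutaminase, stood at 292, 298 and 266 CPM on chow and 149, 189 and 189 CPM on HFCF (log2 change -0.70 ± 0.10, edgeR adjusted p = 0.000727). Sdsl, a serine dehydratase-like enzyme, stood at 16.2, 21.2 and 18.3 CPM on chow and 8.24, 6.33 and 6.38 CPM on HFCF (log2 change -1.40 ± 0.14, edgeR adjusted p = 3.67e-05). For none of them did the groups overlap. Agxt, the peroxisomal alanine-glyoxylate aminotransferase, stood at 352, 313 and 396 CPM on chow and 158, 236 and 204 CPM on HFCF (log2 change -0.83 ± 0.13, edgeR adjusted p = 0.00122). In sulfur amino acid metabolism, Cbs and Cth, the enzymes that carry sulfur from homocysteine to cysteine, both fell. Cbs stood at 491, 436 and 469 CPM on chow and 206, 271 and 278 CPM on HFCF (log2 change -0.89 ± 0.11, edgeR adjusted p = 0.000217). Cth was at 679, 535 and 552 CPM on chow and 298, 319 and 315 CPM on HFCF (log2 change -0.92 ± 0.19, edgeR adjusted p = 0.00738).

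Methyl transfer was mixed: of 38 tested genes of methionine, sulfur and folate metabolism 8 rose and 9 fell (median 0.02), and 5 rose without HFCF replicate 1, chow replicate 1 or chow replicate 3. Inmt, a methyltransferase acting on indoles and thioethers, stood at 241, 241 and 267 CPM on chow and 918, 1130 and 933 CPM on HFCF, 3.98-fold the chow mean and with tight groups (log2 change 1.99 ± 0.11, edgeR adjusted p = 4.25e-07). Gamt, which makes creatine, stood at 62.6, 57.9 and 49.4 CPM on chow and 132, 112 and 95.1 CPM on HFCF (log2 change 1.0 ± 0.14, edgeR adjusted p = 0.000704). Gnmt, the glycine methyltransferase that disposes of surplus S-adenosylmethionine, stood at 1670, 1420 and 1470 CPM on chow and 1010, 1170 and 988 CPM on HFCF and fell (log2 change -0.53 ± 0.09, edgeR adjusted p = 0.00241). Slc6a9, a glycine transporter, stood at 19.4, 18.8 and 19.6 CPM on chow and 35.4, 39 and 28.7 CPM on HFCF and rose (log2 change 0.84 ± 0.11, edgeR adjusted p = 0.000428). In tryptophan and NAD metabolism 6 of 22 tested genes rose and 6 fell (median -0.02). Kynu, the kynureninase, stood at 204, 179 and 198 CPM on chow and 115, 121 and 122 CPM on HFCF (log2 change -0.70 ± 0.08, edgeR adjusted p = 0.000205). Kmo, the hydroxylase just before it, stood at 406, 336 and 354 CPM on chow and 518, 529 and 479 CPM on HFCF (log2 change 0.48 ± 0.10, edgeR adjusted p = 0.00875). Neighbouring steps of the kynurenine route thus moved in opposite directions. Nampt, which salvages nicotinamide for NAD, rose from 109, 136 and 102 CPM on chow to 162, 168 and 163 CPM on HFCF (log2 change 0.51 ± 0.10, edgeR adjusted p = 0.00635). Without chow replicate 2, chow replicate 3 or HFCF replicate 2, 3 of these 22 rose. Without chow replicate 1 or chow replicate 3, 3 fell.

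**Figure D3:**
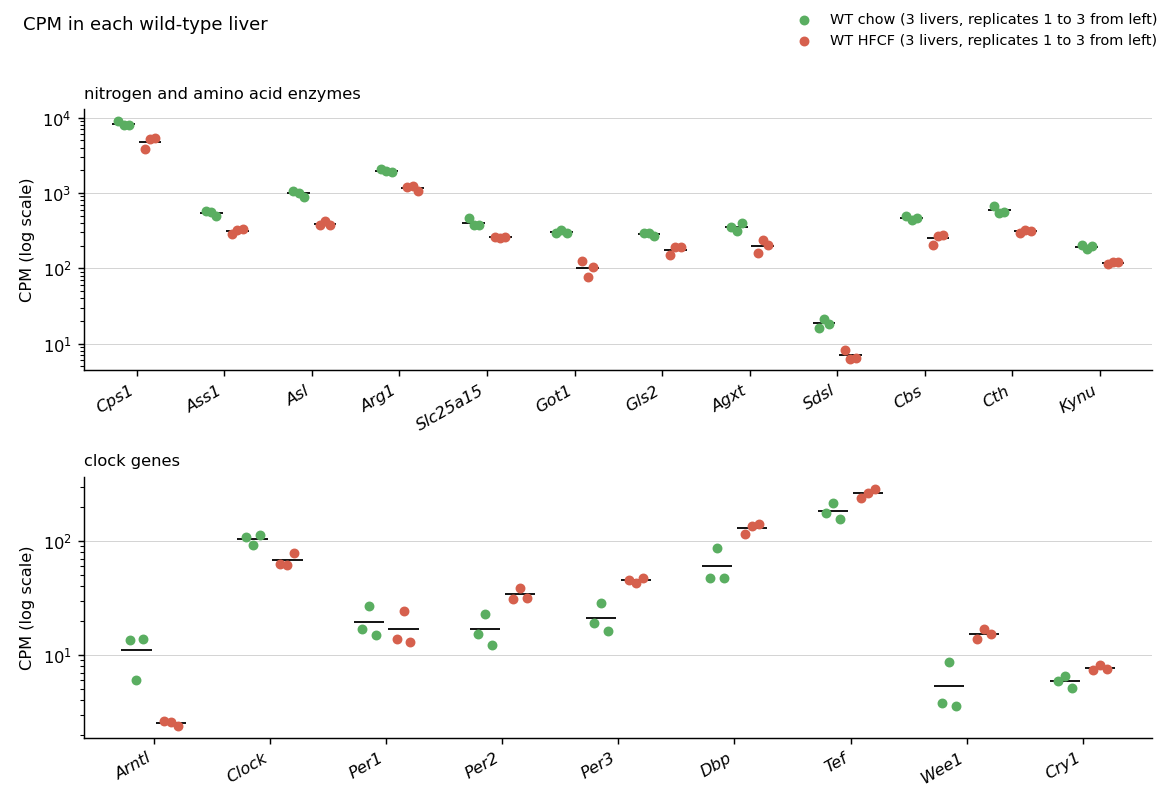
CPM (y axis, log scale) in each WT liver, green for chow and red for HFCF, for enzymes of nitrogen and amino acid metabolism (upper panel) and clock genes (lower panel). Points are livers 1 to 3 from left and short lines are group means. Each of the 12 enzymes has all its HFCF points below its chow points, and Per1 is the clock gene whose groups overlap.

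Asns, the asparagine synthetase, is a standard target of the transcription factor ATF4, which acts when amino acids are short or the ER is under strain. It stood at 26, 40.1 and 21.6 CPM on chow and 1.14, 1.04 and 0.451 CPM on HFCF and had the lowest log2 fold change among the named genes (log2 change -5.03 ± 0.46, edgeR adjusted p = 2.4e-05). Of 38 tested genes of the ATF4 and amino acid response 9 fell and 4 rose (median -0.14; 2 rose without HFCF replicate 1, chow replicate 1 or chow replicate 3). Gars, the glycyl-tRNA synthetase, stood at 45.1, 47.9 and 45.6 CPM on chow and 37.4, 36.8 and 35.1 CPM on HFCF (log2 change -0.34 ± 0.07, edgeR adjusted p = 0.0049). The C/EBP-ATF element was searched as TGATGNAAN on both strands in the 300 bases from 250 before to 50 after each start. It was present in 12 of the 31 list genes with a RefSeq promoter (38.7%) and in 4.5% of all 27025 genes with one. Of those 12 genes 3 fell, 2 rose and 7 were not called, and of all 31 list genes with a promoter 8 fell. The 2 that rose were Atf3 (log2 change 2.19) and Vldlr (1.01). Slc6a9, given above beside methyl transfer, is a further rise of the ATF4 list. A link between the element and the falls was not tested. The stretches below show the element in capitals in the promoters of Asns and Gars, the largest and a small fall of the list. They are from RefSeq, build GRCm38.p6, at chr6:7693212-7693250 (minus strand) and chr6:55037952-55037990 (plus strand).
Asns: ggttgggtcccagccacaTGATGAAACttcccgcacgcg
Gars: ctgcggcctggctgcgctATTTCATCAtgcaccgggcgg

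ER chaperones fell together. Of 33 tested genes of ER folding and the unfolded protein response 12 fell and none rose (36.4% fell; 0 rises at an unadjusted edgeR p under 0.05; median -0.27), and HFCF replicate 1 was the lowest liver for 11 of the 12. The count moved with single libraries: 3 fell without HFCF replicate 1 or chow replicate 1, 5 without chow replicate 2, 6 without HFCF replicate 2 and 17 without HFCF replicate 3, and 1 rose without chow replicate 1. Sec61a1 and Dnajc3 kept their calls without any 1 library. Sec61a1, the pore of the translocon, fell from 180, 174 and 168 CPM on chow to 127, 144 and 131 CPM on HFCF (log2 change -0.38 ± 0.08, edgeR adjusted p = 0.00793). Dnajc3, an inhibitor of eIF2α kinases, fell from 372, 353 and 360 CPM on chow to 240, 266 and 303 CPM on HFCF (log2 change -0.42 ± 0.09, edgeR adjusted p = 0.00919).

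Hspa5, the master ER chaperone BiP, stood at 1000, 845 and 696 CPM on chow and 462, 535 and 633 CPM on HFCF, with the groups apart (log2 change -0.64 ± 0.16, edgeR adjusted p = 0.0167). Its call was lost without chow replicate 1 (edgeR adjusted p = 0.082) and without HFCF replicate 1 (edgeR adjusted p = 0.0632). Hsp90b1, the ER form of HSP90, stood at 931, 842 and 761 CPM on chow and 535, 583 and 661 CPM on HFCF (log2 change -0.51 ± 0.13, edgeR adjusted p = 0.0204). Calr, the lectin chaperone calreticulin, was at 607, 567 and 465 CPM on chow and 350, 387 and 410 CPM on HFCF (log2 change -0.51 ± 0.14, edgeR adjusted p = 0.0262). Both lost their calls without chow replicate 1, chow replicate 2, HFCF replicate 1 or HFCF replicate 2, where edgeR adjusted p lay between 0.0562 and 0.0926 for Hsp90b1 and between 0.0621 and 0.112 for Calr. The ER stress response element was searched as CCAAT, 9 bases of any kind and CCACG on both strands in the same windows. It was present in 9 of 26 list genes with a promoter (34.6%) and in 37 of all 27025 genes with one (0.137%). Of those 9 genes 5 fell and 4 were not called, and of all 26 list genes with a promoter 9 fell. A link between the element and the falls was not tested. The element is shown in capitals in 4 of the genes that fell, on either strand, from RefSeq build GRCm38.p6. The windows are Hspa5 at chr2:34772007-34772055 (plus strand), Calr at chr8:84847063-84847111 (minus strand), Hsp90b1 at chr10:86705521-86705569 (minus strand) and Dnajc3 at chr14:118937809-118937857 (plus strand).
Hspa5: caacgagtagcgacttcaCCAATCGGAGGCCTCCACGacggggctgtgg
Calr: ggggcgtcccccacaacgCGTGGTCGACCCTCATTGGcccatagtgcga
Hsp90b1: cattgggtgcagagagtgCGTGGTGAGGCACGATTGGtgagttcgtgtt
Dnajc3: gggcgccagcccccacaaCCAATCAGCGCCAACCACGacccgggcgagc

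Of 71 tested ribosomal protein genes 22 fell and none rose (31% fell; 0 rises at an unadjusted edgeR p under 0.05; median -0.30), with 10 falls without chow replicate 3 and 17 to 20 without any other single library. Rpl13a stood at 184, 200 and 213 CPM on chow and 137, 144 and 133 CPM on HFCF (log2 change -0.53 ± 0.08, edgeR adjusted p = 0.000634). Rpl5 was at 22, 20.7 and 24 CPM on chow and 14, 13.8 and 16.6 CPM on HFCF (log2 change -0.59 ± 0.10, edgeR adjusted p = 0.00177). Rps3 was at 331, 316 and 347 CPM on chow and 256, 256 and 244 CPM on HFCF (log2 change -0.40 ± 0.07, edgeR adjusted p = 0.00283). In these 3 genes all HFCF livers lay below all chow livers. Genes of this family share reads with processed pseudogenes, so their levels are uncertain.

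Clock genes were displaced in a pattern that HFCF replicate 1 did not lead: of 24 tested genes 8 rose and 2 fell (median 0.40), and that library was never the highest of the 3 HFCF livers in the 8 rises. Arntl (BMAL1), the activator of the clock and the partner of CLOCK (ENSMUSG00000055116, mm10 chromosome 7, 113207464 to 113314122, plus strand), stood at 13.6, 6.09 and 13.8 CPM on chow and 2.62, 2.57 and 2.38 CPM on HFCF (log2 change -2.14 ± 0.28, edgeR adjusted p = 0.000351). Clock stood at 108, 91.9 and 113 CPM on chow and 63.2, 62.1 and 78.8 CPM on HFCF (log2 change -0.62 ± 0.10, edgeR adjusted p = 0.00178). Both partners of the activator were lower in every HFCF liver. Per2, a repressor of that activator, stood at 15.3, 22.7 and 12.3 CPM on chow and 31.3, 39.1 and 31.9 CPM on HFCF (log2 change 1.02 ± 0.19, edgeR adjusted p = 0.00303). Per3 was at 19.2, 28.7 and 16.1 CPM on chow and 45.5, 42.9 and 47.4 CPM on HFCF (log2 change 1.09 ± 0.18, edgeR adjusted p = 0.00147). Dbp, an output transcription factor driven by the activator, stood at 47.1, 86.3 and 47.2 CPM on chow and 116, 137 and 141 CPM on HFCF (log2 change 1.13 ± 0.19, edgeR adjusted p = 0.00205). The repressors and the output gene were higher in every HFCF liver. Wee1, a mitotic kinase under clock control, stood at 3.79, 8.64 and 3.6 CPM on chow and 13.8, 16.8 and 15.3 CPM on HFCF (log2 change 1.52 ± 0.27, edgeR adjusted p = 0.00286). Tef, a relative of Dbp, rose from 178, 214 and 155 CPM on chow to 239, 266 and 289 CPM on HFCF (log2 change 0.54 ± 0.12, edgeR adjusted p = 0.00949). Per1 stood at 16.8, 26.7 and 15 CPM on chow and 13.7, 24.2 and 12.9 CPM on HFCF, with overlapping groups (log2 change -0.21 ± 0.29, edgeR adjusted p = 0.678). Cry1, a further repressor, stood at 5.86, 6.58 and 5.12 CPM on chow and 7.39, 8.21 and 7.54 CPM on HFCF. Its groups were apart, but the gene was not called (log2 change 0.40 ± 0.15, edgeR adjusted p = 0.099). Chow replicate 2 differed from the other chow livers in the direction of the HFCF livers for Arntl, Per2, Per3, Dbp and Wee1. The hour at which each liver was taken is not stated, and its part in these values was not tested. Without HFCF replicate 3, 4 of the 24 fell.

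Among drug-metabolizing enzymes, 13 of 65 tested conjugation and related genes rose and 5 fell (median 0.09; 2 fell without chow replicate 3), and 8 of 44 tested P450s of families Cyp1, Cyp2 and Cyp3 rose and 9 fell (median 0.01). Adh1, the alcohol dehydrogenase, stood at 1270, 1440 and 1450 CPM on chow and 2450, 2530 and 2150 CPM on HFCF (log2 change 0.78 ± 0.10, edgeR adjusted p = 0.000247). Gstp1, a glutathione transferase, stood at 201, 235 and 275 CPM on chow and 111, 130 and 128 CPM on HFCF and fell (log2 change -0.95 ± 0.12, edgeR adjusted p = 0.000332). Gstt1 of another class stood at 184, 151 and 181 CPM on chow and 327, 275 and 239 CPM on HFCF and rose (log2 change 0.71 ± 0.13, edgeR adjusted p = 0.00292). Carboxylesterases were likewise split. Ces2e stood at 193, 181 and 218 CPM on chow and 400, 321 and 303 CPM on HFCF (log2 change 0.79 ± 0.13, edgeR adjusted p = 0.00127). Ces1b was at 75.2, 84.9 and 74.9 CPM on chow and 27.7, 39.7 and 44.3 CPM on HFCF (log2 change -1.07 ± 0.18, edgeR adjusted p = 0.00207). Fmo5, a flavin monooxygenase, rose from 433, 377 and 321 CPM on chow to 692, 634 and 598 CPM on HFCF (log2 change 0.77 ± 0.11, edgeR adjusted p = 0.000688). Among P450s, Cyp2c68 stood at 119, 155 and 113 CPM on chow and 66.2, 53.8 and 71.6 CPM on HFCF (log2 change -1.01 ± 0.15, edgeR adjusted p = 0.00101). Cyp17a1, the steroid 17α-hydroxylase, was at 27.2, 36.4 and 20.5 CPM on chow and 12, 4.87 and 4.57 CPM on HFCF (log2 change -1.95 ± 0.30, edgeR adjusted p = 0.00116). Both fell, with no HFCF liver as high as any chow liver. Reads of Cyp2c68, and of Cyp2c40 given above, may be shared with close paralogs. Alas1, the first enzyme of heme synthesis, stood at 362, 574 and 217 CPM on chow and 1410, 1860 and 1040 CPM on HFCF (log2 change 1.91 ± 0.31, edgeR adjusted p = 0.00165). Its chow livers spread widely, yet all HFCF livers were higher.

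Genes expressed around the central vein and around the portal tract moved apart: of 27 tested pericentral genes 10 rose and 4 fell (median 0.19), and of 22 tested periportal genes 2 rose and 8 fell (median -0.31). Without HFCF replicate 1 the pericentral rises were 6. The pericentral falls were 2 without chow replicate 2 or HFCF replicate 2, and the periportal falls were 5 without chow replicate 2. A periportal rise was lost without HFCF replicate 1 or chow replicate 3. Several periportal falls are urea cycle genes given above. Pericentral members themselves were divided. Avpr1a, the hepatic vasopressin receptor, stood at 27.1, 21.3 and 32.6 CPM on chow and 3.3, 6.33 and 7.8 CPM on HFCF (log2 change -2.23 ± 0.24, edgeR adjusted p = 8.65e-05). Lgr5, an R-spondin receptor at the central vein, was at 6.36, 7.22 and 8.85 CPM on chow and 4.21, 4.52 and 4.9 CPM on HFCF (log2 change -0.72 ± 0.15, edgeR adjusted p = 0.00722). Both fell. Lect2, a secreted chemotactic hepatokine, stood at 72.7, 66.3 and 63.1 CPM on chow and 147, 111 and 121 CPM on HFCF (log2 change 0.91 ± 0.10, edgeR adjusted p = 6.5e-05). Slc13a3, a dicarboxylate carrier, was at 6.94, 6.51 and 5.39 CPM on chow and 26.2, 16.1 and 13.5 CPM on HFCF (log2 change 1.57 ± 0.21, edgeR adjusted p = 0.000462). Rhbg, an ammonia transporter, was at 6.51, 5.59 and 5.19 CPM on chow and 14.9, 11 and 7.99 CPM on HFCF (log2 change 0.98 ± 0.20, edgeR adjusted p = 0.00656). These 3 rose, each highest in HFCF replicate 1.

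Of 59 tested genes that follow growth hormone or sex 5 rose (8.47%) and 7 fell (11.9%), against 7.76% and 5.9% of all tested genes (median -0.11). Ghr, the growth hormone receptor, stood at 541, 514 and 541 CPM on chow and 694, 853 and 800 CPM on HFCF (log2 change 0.56 ± 0.10, edgeR adjusted p = 0.00214). Hsd3b2, a steroid dehydrogenase, was at 22.5, 19.5 and 22.9 CPM on chow and 49.9, 71.1 and 63.7 CPM on HFCF (log2 change 1.51 ± 0.16, edgeR adjusted p = 5.77e-05). These 2 genes rose, while the 7 falls of the list included Serpina1e, Cyp2c40 and Cyp17a1, given above. Of 30 tested fetal and cancer-associated liver genes 4 rose (13.3%) and 3 fell (10%, median 0.29), and 2 rose without HFCF replicate 1 or any 1 chow liver. Peg3, an imprinted zinc finger gene, stood at 20.6, 23.1 and 22.5 CPM on chow and 10, 9.53 and 10.4 CPM on HFCF (log2 change -1.14 ± 0.12, edgeR adjusted p = 4.92e-05). Sox4, a transcription factor of progenitor cells, was at 2.5, 2.41 and 2.7 CPM on chow and 5.12, 4.73 and 4.7 CPM on HFCF (log2 change 0.93 ± 0.15, edgeR adjusted p = 0.00116). The groups were narrow and apart for both.

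Secreted defence proteins did not rise as a group. Of 37 tested acute phase genes 2 rose (5.41%) and 5 fell (13.5%), against 7.76% and 5.9% of all tested genes (median -0.35). The falls were 3 without chow replicate 1 or chow replicate 2, and the rises ranged from 1 without chow replicate 2, chow replicate 3 or HFCF replicate 2 to 5 without HFCF replicate 3. Lbp, which presents lipopolysaccharide to CD14, stood at 165, 139 and 154 CPM on chow and 89, 89.4 and 87.4 CPM on HFCF, nearly equal among HFCF livers (log2 change -0.78 ± 0.13, edgeR adjusted p = 0.00142). Fgl1, a fibrinogen-like hepatokine, stood at 763, 390 and 215 CPM on chow and 95.3, 105 and 115 CPM on HFCF (log2 change -2.12 ± 0.41, edgeR adjusted p = 0.00458). Its chow livers differed several-fold among themselves, and all HFCF livers were lower still. Orm3, an orosomucoid of low level, stood at 1.86, 0.849 and 0.899 CPM on chow and 16, 5.42 and 3.74 CPM on HFCF and rose (log2 change 2.82 ± 0.51, edgeR adjusted p = 0.00309). Of 56 tested complement and coagulation genes 6 rose and 6 fell (10.7% each way, median -0.04). C3, the central complement component, stood at 8510, 8270 and 7180 CPM on chow and 4350, 5850 and 5680 CPM on HFCF (log2 change -0.59 ± 0.14, edgeR adjusted p = 0.013), but was not called without chow replicate 1 (-0.53, edgeR adjusted p = 0.0585). F8, coagulation factor VIII, rose from 78.6, 77.8 and 80 CPM on chow to 107, 97.5 and 103 CPM on HFCF (log2 change 0.38 ± 0.06, edgeR adjusted p = 0.00197). Without HFCF replicate 1 the rises among the 56 were 3 and without HFCF replicate 3 they were 10. The falls were 1 without chow replicate 1 and 3 without chow replicate 3.

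Many type I interferon-stimulated genes rose: 22 of 54 tested and none fell (40.7% rose; 1 fall at an unadjusted edgeR p under 0.05; median 0.64). HFCF replicate 1 was the highest liver for 21 of the 22, and 14 rose without it or without chow replicate 2. A fall appeared without HFCF replicate 1. Oas3, a sensor of double-stranded RNA that makes 2′-5′ oligoadenylate, stood at 0.501, 0.283 and 0.346 CPM on chow and 2.16, 1.74 and 1.48 CPM on HFCF (log2 change 2.24 ± 0.30, edgeR adjusted p = 0.000454). Ifi27l2a stood at 0.93, 1.49 and 1.11 CPM on chow and 7.28, 5.08 and 3.35 CPM on HFCF (log2 change 2.16 ± 0.28, edgeR adjusted p = 0.000351). Bst2, which tethers enveloped viruses to the cell, was at 59.9, 64.9 and 66.6 CPM on chow and 99.8, 89.2 and 86.9 CPM on HFCF (log2 change 0.53 ± 0.08, edgeR adjusted p = 0.000833). For each of these genes the lowest HFCF liver was above the highest chow liver. Oas2 stood at 0.715, 0.779 and 0.484 CPM on chow and 2.05, 1.39 and 2.06 CPM on HFCF (log2 change 1.48 ± 0.26, edgeR adjusted p = 0.00264). Oas1a was at 0.644, 0.496 and 0.76 CPM on chow and 2.84, 1.67 and 1.22 CPM on HFCF (log2 change 1.60 ± 0.38, edgeR adjusted p = 0.015). The call of Oas1a was lost without HFCF replicate 1 (edgeR adjusted p = 0.0763) or chow replicate 2 (edgeR adjusted p = 0.0548). It was also lost by limma voom.

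Ifit3, an interferon-induced gene of the Ifit family, stood at 3.93, 2.41 and 4.01 CPM on chow and 13.7, 7.09 and 7.99 CPM on HFCF (log2 change 1.48 ± 0.27, edgeR adjusted p = 0.00311). Ifi205, a low-level sensor gene of the Ifi200 cluster, stood at 0.286, 0.142 and 0.346 CPM on chow and 1.48, 0.974 and 0.644 CPM on HFCF (log2 change 1.98 ± 0.50, edgeR adjusted p = 0.019), with its call lost without HFCF replicate 1 (edgeR adjusted p = 0.089), chow replicate 1 (edgeR adjusted p = 0.0517) or chow replicate 2 (edgeR adjusted p = 0.07). The interferon-stimulated response element was searched as a pair of TTTC separated by 2 bases of any kind, on both strands in the promoter windows. It was present in 19 of the 36 list genes with a promoter (52.8%) and in 3.99% of all genes with one. Of those 19 genes 9 rose, none fell and 10 were not called, and of all 36 list genes with a promoter 15 rose. A link between the element and the rises was not tested. Examples from genes that rose, with the element in capitals on either strand, are from RefSeq build GRCm38.p6. The windows are Oas3 at chr5:120777713-120777752 (minus strand), Ifi205 at chr1:174031868-174031907 (minus strand) and Ifit3 at chr19:34583389-34583428 (plus strand).
Oas3: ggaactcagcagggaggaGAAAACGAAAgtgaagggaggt
Ifi205: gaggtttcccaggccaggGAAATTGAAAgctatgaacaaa
Ifit3: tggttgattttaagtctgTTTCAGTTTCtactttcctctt

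Of 29 tested interferon gamma-inducible genes 5 rose and none fell (0 falls at an unadjusted edgeR p under 0.05; median 0.54), with 1 rise without chow replicate 2 and 2 without chow replicate 3 or HFCF replicate 1. In MHC class I and peptide loading 7 of 27 rose and 1 fell (median 0.15), with 2 rises without HFCF replicate 1 or chow replicate 3 and 4 without chow replicate 2. The fall was kept without chow replicate 3 or HFCF replicate 3 and lost without any other library. Psmb9, an immunoproteasome subunit, stood at 7.65, 5.8 and 6.01 CPM on chow and 21.8, 13.8 and 11 CPM on HFCF (log2 change 1.26 ± 0.25, edgeR adjusted p = 0.00568). Of 13 MHC class II genes edgeR, DESeq2 and limma voom called 0 (3 at an unadjusted edgeR p under 0.05, all higher; median 0.39), while 2 rose without chow replicate 1 and 1 without HFCF replicate 3. Among 45 tested toll-like receptor and NF-κB genes 2 rose and 5 fell (median 0.07; 3 fell without chow replicate 3, and 4 rose without HFCF replicate 3). That was 4.44% and 11.1% of the list, against 7.76% and 5.9% of all tested genes. Tlr12 stood at 12.3, 14.8 and 13.1 CPM on chow and 45.1, 26.8 and 31 CPM on HFCF (log2 change 1.36 ± 0.19, edgeR adjusted p = 0.000608). Tlr5, the flagellin receptor, was at 7.44, 7.57 and 9.2 CPM on chow and 20.2, 14.3 and 14.5 CPM on HFCF (log2 change 1.02 ± 0.17, edgeR adjusted p = 0.00184). Among the 5 falls, Ikbkg, the NEMO subunit of the IκB kinase, stood at 178, 178 and 172 CPM on chow and 102, 105 and 117 CPM on HFCF (log2 change -0.71 ± 0.09, edgeR adjusted p = 0.000326). Nlrp12, a brake on NF-κB signalling, was at 129, 148 and 168 CPM on chow and 75, 88.9 and 86.9 CPM on HFCF (log2 change -0.83 ± 0.16, edgeR adjusted p = 0.00464).

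Markers of the immune cells that a piece of liver holds stood beside these rises as follows. Of 28 tested markers of lipid-associated macrophages 12 rose and 2 fell (median 0.78), HFCF replicate 1 being the highest for all 12. The rises were 5 without it, 6 without chow replicate 2, 7 without chow replicate 1 or chow replicate 3, and 7 in the fit of the 6 WT libraries alone or with limma voom. Of 50 markers of monocytes and macrophages 2 rose, which is 4% against 7.76% of all tested genes (median 0.40). The rises were 5 without HFCF replicate 2, 19 without HFCF replicate 3 and 1 without HFCF replicate 1, chow replicate 2 or chow replicate 3. A fall appeared without HFCF replicate 1. Their summed level was 730 to 841 CPM on chow and 725 to 1200 CPM on HFCF. Of 29 T and NK cell markers 1 rose and 1 fell (3.45% each way, median -0.02; the fall was kept without chow replicate 3 and lost without any other library), with a summed level of 38.6 to 50 CPM on chow and 65.7 to 99 CPM on HFCF. Their part in the interferon result was not tested. Lgals1, galectin-1, stood at 20.9, 17.1 and 17.7 CPM on chow and 137, 69.3 and 48.8 CPM on HFCF (log2 change 2.20 ± 0.32, edgeR adjusted p = 0.000679). Anxa5, which binds phosphatidylserine on dying cells, stood at 71.7, 71.1 and 71.3 CPM on chow and 221, 113 and 90.2 CPM on HFCF (log2 change 0.99 ± 0.23, edgeR adjusted p = 0.012), with an adjusted p of 0.05 in edgeR's fit of the 6 WT libraries alone. Both were highest in HFCF replicate 1 and lowest of the HFCF livers in replicate 3. Cd163, the hemoglobin scavenger receptor of resident macrophages, stood at 37.2, 37.2 and 28 CPM on chow and 11.9, 18.7 and 17.1 CPM on HFCF and fell (log2 change -1.11 ± 0.16, edgeR adjusted p = 0.000676). Of 19 resident Kupffer cell markers 2 rose and only 1, Cd163, fell (10.5% and 5.26%, median 0.21). At an unadjusted edgeR p under 0.05, 4 of them were higher and 1 was lower. No rise was left without chow replicate 3, and 8 rose without HFCF replicate 3. Ctsl, cathepsin L of the lysosome, stood at 859, 799 and 823 CPM on chow and 605, 548 and 537 CPM on HFCF and fell (log2 change -0.55 ± 0.10, edgeR adjusted p = 0.00303).

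Many matrix genes rose: 31 of 82 tested rose (37.8%) and 4 fell (median 0.50). There were 20 rises without HFCF replicate 1 or chow replicate 3 and 19 without chow replicate 1. Col1a1, the chain of fibrillar collagen I, stood at 2.72, 1.77 and 2.7 CPM on chow and 17.1, 12.7 and 6.77 CPM on HFCF (log2 change 2.35 ± 0.43, edgeR adjusted p = 0.00316), 5.08-fold the chow mean. Col6a3, a chain of collagen VI, stood at 13.7, 9.91 and 13.1 CPM on chow and 25.5, 28.8 and 22.6 CPM on HFCF (log2 change 1.06 ± 0.19, edgeR adjusted p = 0.00241). Serpinh1, the collagen chaperone HSP47 of the ER, stood at 7.72, 8.71 and 8.99 CPM on chow and 22.3, 18.8 and 13.9 CPM on HFCF and rose (log2 change 1.11 ± 0.19, edgeR adjusted p = 0.00237). Tnc, tenascin C of injured tissue, stood at 2.07, 1.7 and 2.07 CPM on chow and 8.02, 6.26 and 2.77 CPM on HFCF (log2 change 1.55 ± 0.32, edgeR adjusted p = 0.00708). The HFCF livers were above the chow livers for all 4 genes, and replicate 3 was the lowest of them for each.

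Of 33 tested markers of stellate cells and fibroblasts 11 rose and none fell (2 falls at an unadjusted edgeR p under 0.05; median 0.29), with 5 rises without HFCF replicate 1, 6 without HFCF replicate 2 and 7 without chow replicate 1 or chow replicate 2. Their summed level was 913 to 1050 CPM on chow and 1110 to 1150 CPM on HFCF. Its part in the matrix result was not tested. Cygb, a globin of stellate cells, stood at 5.22, 5.66 and 4.56 CPM on chow and 11.1, 10.8 and 8.7 CPM on HFCF (log2 change 0.98 ± 0.17, edgeR adjusted p = 0.00229). Tpm2, a tropomyosin of contractile cells, stood at 9.73, 6.51 and 8.37 CPM on chow and 24, 35.3 and 29.6 CPM on HFCF, highest in HFCF replicate 2 (log2 change 1.85 ± 0.19, edgeR adjusted p = 5.73e-05). Of 23 tested markers of cholangiocytes and the ductular reaction 7 rose and 1 fell (median 0.23), with 3 rises without HFCF replicate 1 or chow replicate 3 and no fall without these or without chow replicate 2 or HFCF replicate 3. Krt23, a keratin of stressed hepatocytes and ducts, stood at 1.64, 1.98 and 2.42 CPM on chow and 9.32, 9.39 and 14.9 CPM on HFCF (log2 change 2.47 ± 0.32, edgeR adjusted p = 0.00034). Pkhd1, fibrocystin of bile ducts, was at 17.7, 14.2 and 17.5 CPM on chow and 25.8, 28 and 26.1 CPM on HFCF (log2 change 0.69 ± 0.12, edgeR adjusted p = 0.00208). The defining duct markers Krt19 and Epcam stayed near 1 CPM with overlapping groups. Krt19 stood at 0.286, 0.849 and 0.968 CPM on chow and 0.682, 1.25 and 0.838 CPM on HFCF (log2 change 0.37 ± 0.38, edgeR adjusted p = 0.563). Epcam was at 0.572, 1.7 and 1.52 CPM on chow and 0.853, 1.25 and 1.74 CPM on HFCF (log2 change 0.00 ± 0.37, edgeR adjusted p = 0.997).

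**Figure D4:**
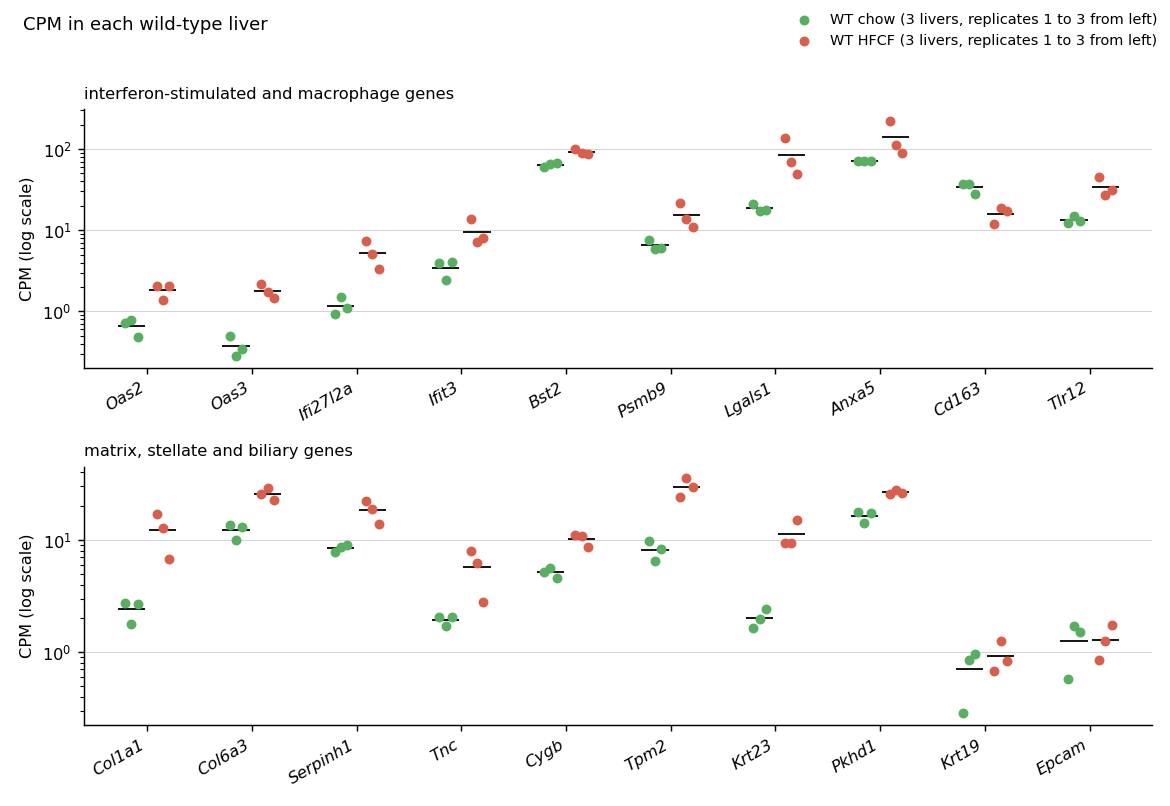
CPM (y axis, log scale) in each WT liver, green for chow and red for HFCF, for interferon-stimulated and macrophage genes (upper panel) and matrix, stellate and biliary genes (lower panel). Points are livers 1 to 3 from left and short lines are group means. HFCF replicate 1 is the highest point for genes such as Lgals1, Anxa5 and Col1a1, and the groups of Krt19 and Epcam overlap.

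Of 62 tested genes of cell cycle and DNA replication 11 rose and 2 fell (median 0.46). HFCF replicate 1 was the highest liver for all 11, and 4 rose without it or without chow replicate 2 and 6 without chow replicate 1. Of the falls 0 were left without chow replicate 2 and 1 without chow replicate 1, chow replicate 3 or HFCF replicate 3. Ccnd1, cyclin D1, stood at 13.9, 16.4 and 10.4 CPM on chow and 34.1, 24.2 and 22.2 CPM on HFCF (log2 change 0.99 ± 0.18, edgeR adjusted p = 0.00314). E2f1, the transcription factor of S-phase entry, stood at 1.29, 0.92 and 0.968 CPM on chow and 3.98, 2.09 and 2.13 CPM on HFCF (log2 change 1.38 ± 0.29, edgeR adjusted p = 0.00778). Cdk1, the mitotic kinase, was at 1, 0.849 and 0.691 CPM on chow and 2.05, 1.67 and 1.68 CPM on HFCF (log2 change 1.09 ± 0.23, edgeR adjusted p = 0.00833). E2f1 and Cdk1 were near 1 CPM on chow and below 4 CPM on HFCF. Gadd45a, a stress-induced growth arrest gene, stood at 2.43, 3.19 and 2.56 CPM on chow and 18.6, 8.28 and 10.7 CPM on HFCF (log2 change 2.21 ± 0.31, edgeR adjusted p = 0.000588). For all 4 genes every HFCF liver was above every chow liver.

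The same contrast in KO liver gave a smaller number of calls: 216 genes rose (1.47%) and 174 fell (1.18%). The KO comparison has its own 3 chow and 3 HFCF livers. Of the 1144 genes that rose in WT, 114 also rose in KO, which is 9.97% of the WT list and 52.8% of the KO list. Of the 869 that fell in WT, 80 also fell in KO, 9.21% of the WT list and 46% of the KO list. The median log2 fold change of the WT rises was 0.62 in WT and 0.22 in KO, and of the WT falls -0.47 and -0.16. The WT values are those that chose these genes, so only the KO medians are free of that choice. The difference between genotypes itself was called for 117 genes (0.794%), of which 51 had risen and 41 had fallen in WT.

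Cholesterol synthesis genes fell on both backgrounds, in KO 7 of 9 and 9 of 12 tested. In these lists edgeR called a difference between genotypes for 0 of the 9 (3 at an unadjusted p under 0.05) and 1 of the 12. Among the 16 LXR-regulated genes it called 1. Both called differences were lower in KO than in WT. Cyp51 changed by -2.57 ± 0.14 in WT and -2.63 ± 0.14 in KO, and Abcg5 by 1.38 ± 0.10 and 1.31 ± 0.10. The difference between genotypes was not called for either (edgeR adjusted p = 0.943 and 0.885). Fabp2 changed by 1.07 ± 0.08 in WT and 1.10 ± 0.08 in KO (edgeR adjusted p of the difference = 0.949). For genes of nitrogen metabolism the difference was called for 6 of 31, among them Ass1, Asl, Slc25a15, Got1 and Agxt. Got1 changed by -1.57 ± 0.21 in WT and -0.13 ± 0.21 in KO (edgeR adjusted p of the difference = 0.0456). Asl changed by -1.34 ± 0.15 in WT and -0.34 ± 0.15 in KO (edgeR adjusted p of the difference = 0.0497). None of these 5 was called in KO.

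For ER chaperones the difference was called for 4 of 33, namely Hspa5, Hsp90b1, Calr and Dnajb11. Calr changed by -0.51 ± 0.14 in WT and 0.58 ± 0.14 in KO, where it was called as a rise (edgeR adjusted p = 0.0421; edgeR adjusted p of the difference = 0.0341). Acute phase genes differed for 9 of 37: 12 rose in KO and none fell, with a median of 0.48 against -0.35 in WT. In matrix genes 1 of 82 rose in KO and 1 fell, and the difference was called for 2 of 82. Col1a1 changed by 2.35 ± 0.43 in WT and 0.04 ± 0.33 in KO, a difference that was not called (edgeR adjusted p = 0.07). Of 54 interferon-stimulated genes 9 rose in KO and none fell (median 0.50), and edgeR called a difference for 0 of them (8 at an unadjusted p under 0.05). Clock genes had 1 rise in KO and 0 called differences (9 at an unadjusted p under 0.05). Arntl changed by -2.14 ± 0.28 in WT and -0.60 ± 0.30 in KO (edgeR adjusted p of the difference = 0.106).

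Other single genes differed between genotypes too. Osbpl5, an oxysterol-binding protein relative, stood at 3.29, 2.97 and 2.63 CPM on chow and 15.2, 12.4 and 12.1 CPM on HFCF in WT (log2 change 2.16 ± 0.16, edgeR adjusted p = 3.68e-06) and changed by 0.21 ± 0.16 in KO (edgeR adjusted p of the difference = 0.0034). Ddah1, which degrades the nitric oxide synthase inhibitor dimethylarginine, stood at 76.9, 62.9 and 82.3 CPM on chow and 157, 164 and 175 CPM on HFCF in WT (log2 change 1.16 ± 0.10, edgeR adjusted p = 1.64e-05) and changed by 0.19 ± 0.10 in KO (edgeR adjusted p of the difference = 0.0165). Mme, the membrane peptidase neprilysin, stood at 40.1, 35.1 and 44 CPM on chow and 82, 63.8 and 73.6 CPM on HFCF in WT (log2 change 0.88 ± 0.11, edgeR adjusted p = 0.000205) and changed by -0.13 ± 0.11 in KO (edgeR adjusted p of the difference = 0.0165). Each rose in WT with groups apart, and none was called in KO. Fam89a fell in WT, from 9.73, 9.56 and 12 CPM on chow to 3.98, 3.34 and 3.99 CPM on HFCF (log2 change -1.46 ± 0.13, edgeR adjusted p = 2.12e-05), and changed by -0.26 ± 0.12 in KO (edgeR adjusted p of the difference = 0.0165).

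**Figure D5:**
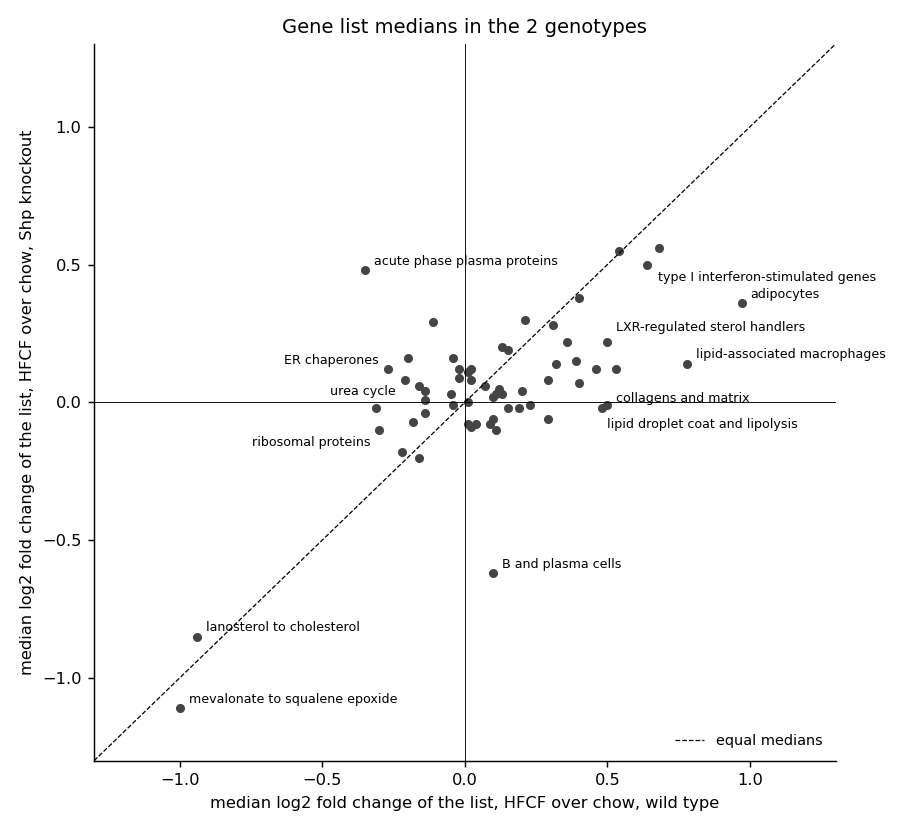
Median log2 fold change (HFCF over chow) of each of 62 gene lists in WT (x axis) and KO (y axis); each point is a list and the dashed line marks equal medians. Both cholesterol synthesis lists lie at the lower left near the line, and acute phase plasma proteins lie above it at -0.35 in WT and 0.48 in KO.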

How the data were processed

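Liver RNA was prepared with a stranded TruSeq kit after Ribo-Zero Gold depletion and aligned to mm10, per the labels' protocols and the submitters' processing notes; the aligner, counting tool, strand setting and annotation release are not given in the sources used here. The authors deposited raw read counts per gene and FPKM values (count over gene length and library total) for 12 libraries, per the file headers. The deposited table lists genes whose highest count is at least 10. Some members of the gene lists, among them Apoe, Hmgcs1, Phgdh and Plin1, are absent from it and enter no count here. Why they are absent is not stated, so absence is not read as low expression.

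Genes were filtered with filterByExpr (minimum count 10, minimum total 15), which removed 1110 of 15846 and left 14736. Library sizes were scaled by TMM and the counts of all 12 libraries were fitted by edgeR 4.0.16 (quasi-likelihood, 1 mean per group, 8 residual degrees of freedom) in R 4.3.3, with Benjamini-Hochberg adjustment over all tested genes. Differences of genotype are interaction contrasts of the same fit. The common biological coefficient of variation was 0.119. Total counts of 13967116 to 17371095 in the WT libraries set the counting error; the number of mice limits the precision further. In simulated counts for 14659 genes with the WT contrast, 83% of genes changed by 1 and 98% of genes changed by 2 on the log2 scale were called, and 7 of 188 calls were unchanged genes. The changed genes, 100 of each size, were drawn only from genes with higher counts, and all libraries of a gene had the same spread. In the real data more genes changed and HFCF replicate 1 stood apart, so these rates need not hold for rare genes or for these livers.

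The comparison, the 62 gene lists and their members were chosen with earlier results of these data known. Genes are named by this rule: Nr0b2; the 12 largest rises and 12 largest falls in log2 fold change among called genes whose groups were apart and whose higher group averaged 1 CPM or more, leaving out antigen receptor segments and provisional symbols; the 8 largest rises and 8 largest falls in mean FPKM; up to 10 genes called in WT with the lowest p for the difference between genotypes; and from each list its first 3 members and up to 6 called members with the lowest adjusted p. Agxt, Cth, Per2, Tef, Cry1, Gstt1, Oas1a, Ifit3, Ifi205, Anxa5, Tnc and Otc were chosen after their values were seen. A few genes that the rule covers are not reported here. Alternatives were other scaling, other filters, the replicate block, the 6 WT libraries alone, DESeq2 1.42.0, limma voom (limma 3.58.1) and leaving out each WT library. Motifs were searched in RefSeq promoters of GRCm38.p6, from 250 bases before to 50 after each start; names of motifs are conventional and a match is no binding site.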

Additional observations from a re-analysis of the deposited data

Results flagged for a closer look

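For 27 named genes that were called in WT the effect of HFCF differed between genotypes by edgeR's interaction test (adjusted p under 0.05 over all tested genes), a call that 0.794% of all tested genes met. Values are the diet effect in KO minus that in WT, on the log2 scale. The difference was positive for 15. Among genes that fell in WT these included Asns (4.08), Fgl1 (2.87), Got1 (1.43), Fam89a (1.21), the provisional gene 8430419L09Rik (1.09), Asl (1.0), Agxt (1.0), Kynu (0.79), Ctsl (0.71), Ass1 (0.67) and Slc25a15 (0.66). The ER chaperones were 1.1 for Calr, 1.04 for Hspa5, 0.9 for Hsp90b1 and 0.7 for Dnajb11. The difference was negative for 12 genes that rose in WT. Those with the widest difference were Gpr98 (-2.87), Aacs (-2.68), Cidec (-2.62), Osbpl5 (-1.95), Tpm2 (-1.5), Rhbg (-1.41) and Slc6a9 (-1.21). The others were Sox4 (-1.07), Mme (-1.01), Ddah1 (-0.97), Gstt1 (-0.9) and Adh1 (-0.73). Of the 27 genes 1, Calr, was called in KO. These genes were taken because they had been called in WT, which favours a difference opposite in sign to the WT change. The naming rule also chose up to 10 genes by a low p in this same test, so the 27 are no independent support for it. Of all genes called in WT, the difference was called for 51 of 1144 rises and 41 of 869 falls.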

How the results depend on the processing

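Leaving out 1 WT library at a time gave between 649 and 1335 rises (1144 with all), between 449 and 929 falls (869) and between 283 and 530 genes changed at least 2-fold (407). With the 6 WT libraries alone 533 genes fell and 836 rose. Same-numbered chow and HFCF livers were not shown to be paired (correlation of their deviations 0.08, 0.17 and 0.11, each highest with its own number); with the replicate block 1045 rose and 768 fell, and all 143 called genes named kept their calls. Of these 143, 134 kept them without any 1 library, 139 under the alternatives that keep all 6 WT libraries and 133 under both. For 3 there was no value under some alternative, and no named gene reversed. Most of the 143 were named for a low adjusted p or a large change, which favours keeping a call. Of all 2013 genes called, 1053 kept call and direction without chow replicate 3 and 1693 without HFCF replicate 3, the lowest and highest such counts. With the 6 WT libraries alone 1300 of the 2013 did so, and with the replicate block 1731. Other counts that moved by over 1.5 times were bile acid synthesis (4 falls, 2 with the block or the WT libraries alone), fatty acid oxidation (4 rises, 7 with DESeq2; 4 falls, 2 in the WT libraries alone), glucose metabolism (2 falls, 1 with RLE scaling, 4 with the block or limma voom, 5 with DESeq2), fructose metabolism (1 fall, 2 with the block, DESeq2 or limma voom), interferon gamma genes (5 rises, 8 with DESeq2, 2 with limma voom), monocyte markers (2 rises, 7 with DESeq2) and hepatocyte markers (5 falls, 9 with DESeq2). In the WT libraries alone the falls were 3 against 5 for conjugation and 2 against 6 for complement, and the MHC class I rises 4 against 7. The cause of each was not tested. Calls were rarer among rare genes, where the part of depth was not tested: 2.04% fell among the 3684 genes lowest in FPKM against 10.6% of the highest 3684.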

Other observations

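Lists that enter no result above are given here beside the shares over all tested genes (7.76% rose and 5.9% fell). Of 38 tested secreted hepatokines 7 rose and 4 fell (median log2 fold change -0.18; 7 fell without HFCF replicate 2). Of 32 nuclear receptors 5 rose and 1 fell (median 0.15). Their rises were 3 without chow replicate 1, chow replicate 3 or HFCF replicate 2, and the falls 0 without HFCF replicate 1, chow replicate 1 or chow replicate 2, 2 without chow replicate 3 and 3 without HFCF replicate 3. Of 32 NRF2 antioxidant genes 4 rose and 3 fell (median 0.10). Their rises were 0 without chow replicate 1, 1 without chow replicate 3 and 2 without HFCF replicate 1 or HFCF replicate 2. The falls were 0 without chow replicate 2 and 1 without HFCF replicate 1, HFCF replicate 2, chow replicate 1 or chow replicate 3.

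Of 30 iron and heme genes 4 rose and 2 fell (median 0.02). The rises were 2 without HFCF replicate 1 or chow replicate 3, and the falls 0 without chow replicate 1 or HFCF replicate 2 and 1 without chow replicate 2 or chow replicate 3. Of 47 lysosome and autophagy genes 5 rose and 5 fell (median -0.05). Rises numbered 2 without HFCF replicate 1 or chow replicate 3, 3 without chow replicate 1, chow replicate 2 or HFCF replicate 2 and 8 without HFCF replicate 3. Falls numbered 2 without chow replicate 1, chow replicate 3 or HFCF replicate 2 and 3 without chow replicate 2 or HFCF replicate 3. Of 33 genes of apoptosis, injury and p53 3 rose and 1 fell (median 0.12). There was 1 rise without HFCF replicate 1 or chow replicate 3, and the falls were 2 without HFCF replicate 1 and 0 without chow replicate 2, chow replicate 3 or HFCF replicate 2. Of 18 genes of the serpina clusters 2 rose and 3 fell (median -0.20), with 1 rise without HFCF replicate 1 or chow replicate 2, 0 rises without chow replicate 3 and 5 falls without HFCF replicate 2.

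Among 40 tested chemokines and cytokines 5 rose and 1 fell (median 0.31). The rises were 1 without HFCF replicate 1 or chow replicate 3, 2 without chow replicate 2 and 3 without chow replicate 1, and 2 fell without HFCF replicate 3. Of 15 dendritic cell markers 3 rose (median 0.53; 1 without HFCF replicate 1). Of 6 neutrophil markers 1 fell (median -0.16), a call kept without chow replicate 2 and lost without any other library. Of 27 markers of B and plasma cells 1 rose and 1 fell (median 0.10), the rise being lost without HFCF replicate 1 or any 1 chow liver. Of 38 endothelial markers 2 rose and 1 fell (median 0.11). Without any 1 chow liver or HFCF replicate 2, 1 rose and 0 fell, and 2 fell without HFCF replicate 3. Of 8 red blood cell markers 2 rose (median 0.36; 1 without chow replicate 1, chow replicate 2, HFCF replicate 2 or HFCF replicate 3). Of 6 tested markers of pancreas, gut, kidney and mesothelium edgeR, DESeq2 and limma voom called 0 (0 at an unadjusted edgeR p under 0.05; median 0.68), while 2 rose in the fit of the 6 WT libraries alone. By class of transcript, 1067 of 12762 protein-coding genes rose and 799 fell. Of 107 tested snoRNAs, a class singled out after its values were seen, 10 fell (9.35%) and 0 rose by edgeR.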
